A study of Mus musculus with 12 samples.

Results

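The genes described here are 7 growth factor and receptor genes of the FGF, PDGF, HGF and IGF families, measured in the healing callus of a broken mouse femur. They are the ligands Fgf7, Hgf and Igf2 and the receptors Fgfr1, Fgfr3, Pdgfra and Pdgfrb. They were chosen by name from the spots of 2 focused membrane arrays that hold 188 distinct genes in all. Igf2 was taken from the hypoxia arrays and the other 6 from the angiogenesis arrays, each of which carries 100 genes. Each of the 7 has 1 spot, and all 7 symbols are current in RefSeq.

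The samples were RNA of fracture callus from mice labelled WT and mice labelled HET for HIF-1a, the oxygen-regulated transcription factor subunit, at 7, 10 and 14 days after a fixed closed fracture of the femur. The series title describes the HET mice as partly deficient in HIF-1alpha. The sources used here do not state strain, age, sex or the altered allele. For each genotype on each day, equal parts of RNA from 3 animals were pooled and measured on 1 array of each type, so no value has a repeat and the spread between animals is unknown. Hif1a itself was brighter on the day 7 angiogenesis array labelled HET (25140) than on its WT partner (8037), and on the hypoxia arrays of that day too (5509 against 137). At days 10 and 14 its density was lower on the arrays labelled HET. It was 6924 and 6574 against 11449.5 and 11008 on the angiogenesis arrays and 18939 and 4766 against 30822 and 15394 on the hypoxia arrays. After quantile normalization HET minus WT was -0.19 and 0 log2 units on the angiogenesis arrays and -2.22 and -1.06 on the hypoxia arrays. With arrays scaled to the same median it was 0.88 and 2.15 on the angiogenesis arrays and -2.85 and -0.60 on the hypoxia arrays. The direction on the angiogenesis arrays thus depended on the scaling. Day 7 goes against the label, and arrays are therefore named by their labels throughout. In pooled tissue RNA, fewer cells of a type and less RNA per cell cannot be told apart.

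FGF, PDGF, HGF and IGF ligands act through receptor tyrosine kinases at the cell surface, which signal as pairs and start the MAP kinase and PI3 kinase cascades. In bone repair these pathways are known for driving the growth of periosteal progenitor cells, for pacing cartilage growth and its replacement by bone, and for recruiting the cells that stabilise new vessels. Fgf7, also called keratinocyte growth factor, is made by mesenchymal cells. Fgfr1 is a receptor of osteoprogenitor cells, whereas Fgfr3 is a receptor of cartilage cells and restrains their growth. Pdgfra and Pdgfrb are the PDGF receptors of mesenchymal cells and of the pericytes and smooth muscle of vessels. Hgf encodes the ligand of the Met receptor, and Igf2 encodes a fetal-type insulin-like growth factor that acts through the IGF1 receptor.

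Since the mice differ in a HIF-1 subunit, the promoters of 3 members are shown with the core of the HIF binding motif marked. Of the 7 genes, 5 have an entry in the RefSeq promoter table (GRCm38.p6), with 10 transcription starts among them. The 250 bases before each start were searched on both strands for ACGTG and GCGTG (a match on one strand can overlap one on the other, as in CACGTG). Either motif was present before 4 of the 10 starts, and in 38.6% of all 32851 promoters of the table over the same length. The sequences are those of Fgfr3, whose first start has 4 matches, of Fgf7, with 1 match, and of Pdgfra, with 0, and capitals mark the matches. A match describes these letters only.
Fgfr3, chr5:33721474-33721723, + strand: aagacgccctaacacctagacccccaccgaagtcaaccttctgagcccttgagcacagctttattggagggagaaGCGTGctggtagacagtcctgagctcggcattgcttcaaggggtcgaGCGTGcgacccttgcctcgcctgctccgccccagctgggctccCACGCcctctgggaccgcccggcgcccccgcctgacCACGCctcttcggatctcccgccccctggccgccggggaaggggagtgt
Fgf7, chr2:126034408-126034657, + strand: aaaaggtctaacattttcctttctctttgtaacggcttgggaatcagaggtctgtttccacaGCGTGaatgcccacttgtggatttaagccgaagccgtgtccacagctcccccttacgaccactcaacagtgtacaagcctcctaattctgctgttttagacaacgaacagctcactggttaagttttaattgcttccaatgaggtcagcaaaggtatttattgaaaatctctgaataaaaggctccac
Pdgfra, chr5:75152001-75152250, + strand: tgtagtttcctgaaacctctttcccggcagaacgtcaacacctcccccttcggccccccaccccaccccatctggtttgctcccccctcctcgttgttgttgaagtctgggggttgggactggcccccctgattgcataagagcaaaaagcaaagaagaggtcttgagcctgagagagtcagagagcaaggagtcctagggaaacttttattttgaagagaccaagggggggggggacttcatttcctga

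Spot brightness is given as density, a linear scale with no unit. Each array carries 6 control spots that hold PUC18 plasmid DNA or nothing (Blank), and a spot counted as above background if its density exceeded that of every control on the same array. Spots at a density of 45701 or more, which is 90% of the maximum over all arrays, counted as near the ceiling. Of the 42 values of the 7 genes, 27 were above background and 11 of those were near the ceiling, so 16 lay in the range where a level can be read on both sides. The arrays themselves differed widely. The share of the 100 angiogenesis genes above background was 9%, 76% and 79% on the WT arrays of days 7, 10 and 14 and 12%, 91% and 44% on those labelled HET, and the median gene density ran from 32.3 to 1435. Of the 100 hypoxia genes, 27, 56 and 42 were above background on the WT arrays of these days and 20, 53 and 46 on those labelled HET. On each array of either type, 2 to 11 of the 100 genes were near the ceiling. Of the bone matrix genes, Col1a1 (hypoxia arrays) and Sparc (angiogenesis arrays) were above background on all 6 arrays of their type, with Sparc at 402 in WT at day 7, while Spp1 was below background on both day 7 arrays (61.3 and 251) and above it on the 4 later ones.

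**Figure D1:**
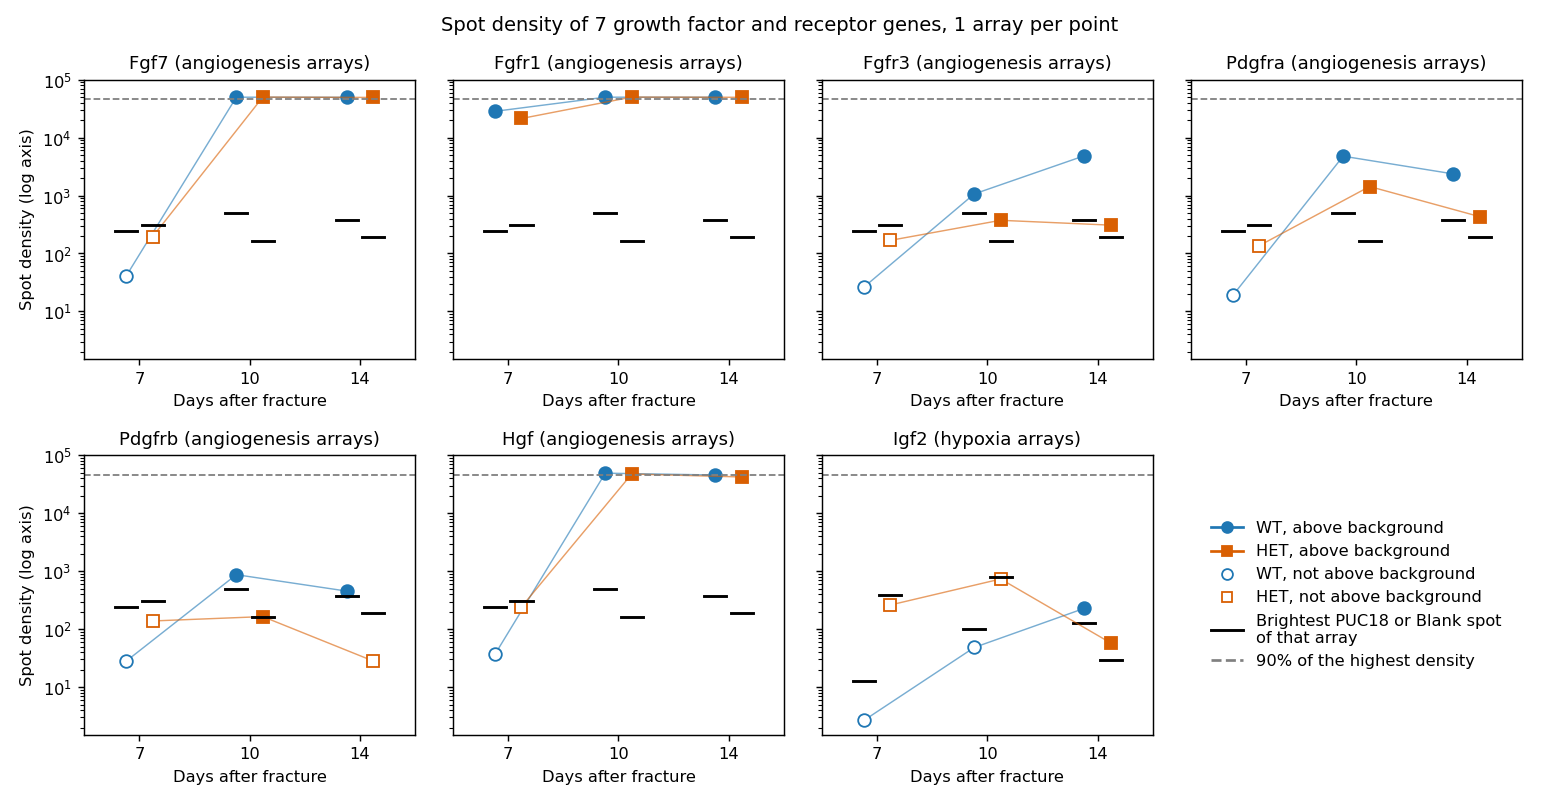
Spot density (log axis) of each gene at 7, 10 and 14 days after fracture, with 1 array per point, WT as blue circles and HET as orange squares; open symbols are not above background, short bars mark the brightest PUC18 or Blank spot of that array, and the dashed line marks 90% of the highest density. Fgf7 and Hgf lie below background at day 7 and between 42467 and 50122 afterwards, Fgfr1 is bright on every array, and Fgfr3, Pdgfra, Pdgfrb and Igf2 reach at most 4868.

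Among the ligands, Fgf7 went from below background to the top of the scale between days 7 and 10 in both genotypes. In WT the Fgf7 spot had densities of 40.6, 49948 and 49760 on days 7, 10 and 14, and on the arrays labelled HET it had 194, 50122 and 49473. Both day 7 values lay below their brightest control spots, at 241 and 312, and all 4 later values were near the ceiling. Fgf7 was among the 3 brightest of 100 spots, a rank of spot brightness that says nothing of transcript numbers between genes, on each of the 4 later arrays, against ranks 34.5 and 31 at day 7. The fitted rise from day 7 to day 10 was 6.12 log2 units (SE 0.56, n = 2 arrays per day, adjusted p = 0.0028, limma with genotype in the model). Fgf7 met the filter for this test (above background on at least 1 array) through the arrays of days 10 and 14 alone. The fit takes spots below background and near the ceiling at their measured values, so its SE and p do not measure the rise. Because the day 7 spots were below background, the fold is a bound, at least 6.55-fold on the normalized scale and at least 147-fold without normalization. Between days 10 and 14 no fold can be given, since all 4 spots were near the ceiling.

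Hgf, too, was below background at day 7 and close to the top of the scale at day 10. The WT densities were 37.0, 49418 and 45885.5 on days 7, 10 and 14, and those on the arrays labelled HET were 243, 47795 and 42467. Both day 7 values were below background, although the HET value stood at 0.78 of its brightest control spot and the WT value at 0.15. The fitted rise from day 7 to day 10 was 3.77 log2 units (SE 0.66, n = 2 arrays per day, adjusted p = 0.012, limma). Hgf, too, met the filter through the later arrays alone, and the same limit holds for its SE and p. As a bound the rise was at least 1.92-fold on the normalized scale and at least 143-fold without normalization. Hgf was near the ceiling on both day 10 arrays and on the WT array at day 14, and on the day 14 array labelled HET it stood below it.

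Igf2, on the hypoxia arrays, was a dim spot. In WT it had densities of 2.66, 48.3 and 229 on days 7, 10 and 14, against brightest control spots of 12.7, 99.5 and 128.5. On the arrays labelled HET it was 262, 735 and 57.6, against 391, 805 and 29.6. Igf2 was thus above background only at day 14, by 1.78 times in WT and 1.94 times on the array labelled HET. The higher HET densities at days 7 and 10 lay below their own control spots and carry no fold. From day 10 to day 14 the fitted difference was 1.46 log2 units (SE 0.43, n = 2 arrays per day), which did not pass (adjusted p = 0.117, limma). With reference gene scaling or without normalization the same difference was -0.24 and -0.69. The fat cell markers Fabp4 and Lep had summed densities between 412 and 44663 over these arrays, highest at day 10 in both genotypes, with Lep never above background and at 0 on the WT array of day 7, and the part of other cells in the Igf2 values was not tested.

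Among the receptors, Fgfr1 was above background on all 6 arrays, the only one of the 7 genes to be so. From day 7 to day 14 the WT spot had densities of 28491, 49953.5 and 49845, and the spot on the arrays labelled HET had 21415, 50127 and 49740. Only the day 7 spots lay below the ceiling, so the day 10 minus day 7 difference of 0.49 log2 units is cut off at the top, and it did not pass (SE 0.56, n = 2 arrays per day, adjusted p = 0.55, limma). Its direction depended on the scaling, with -2.31 under median scaling. The files list Fgf7, Fgfr1 and Fgfr3 at successive spot positions, 28, 29 and 30. At day 7 Fgf7 and Fgfr3 were below background while Fgfr1 between them stood at 28491 and 21415. At day 10, with Fgfr1 near the ceiling at 49953.5 and 50127, Fgf7 stood at 49948 and 50122 and Fgfr3 at 1066 and 374. Carry-over of signal between neighbouring spots was not tested.

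Fgfr3 was brighter at day 14 than at day 10 in WT and dimmer on the arrays labelled HET. The WT densities from day 7 to day 14 were 26.3, 1066 and 4868, and those on the arrays labelled HET were 168, 374 and 308. Both day 7 spots were below background. Between days 10 and 14 the density was 4.57 times as high in WT and 0.82 times on the arrays labelled HET. The rank among the 100 genes, in which 1 is the brightest, went from 57 to 28 in WT and from 61 to 38 on the arrays labelled HET, the same way in both. The fitted day 14 minus day 10 difference was 1.66 log2 units (SE 0.67, n = 2 arrays per day), which did not pass (adjusted p = 0.54, limma). The arrays carry none of the 4 cartilage markers looked for, so the amount of cartilage in each pool has no measure here.

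Pdgfra was below background at day 7 and above it on all 4 later arrays. The WT spot had densities of 19.0, 4787 and 2363 over the 3 days, and the spot on the arrays labelled HET had densities of 137, 1433 and 432. The 4 later spots were 2.27 to 9.76 times their brightest control spot. The fitted day 10 minus day 7 difference was 2.44 log2 units (SE 0.58, n = 2 arrays per day, adjusted p = 0.028, limma), but it rests on day 7 values below background. No bound can be given on the normalized scale, where the dimmest gene above background at day 7 lies higher than Pdgfra at day 10, and without normalization the bound was at least 7.53-fold. The day 14 minus day 10 difference of -0.40 log2 units did not pass (SE 0.58, n = 2 arrays per day, adjusted p = 0.85, limma).

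Pdgfrb was the receptor with the fewest spots above background, 3 of 6. In WT its densities over the 3 days were 28.0, 873 and 455, and on the arrays labelled HET 138, 165 and 28.3. It was above background in WT at days 10 and 14, by 1.78 and 1.22 times, and on the day 10 array labelled HET by 1.02 times, which is at the limit. The day 10 minus day 7 difference was -0.51 log2 units (SE 0.60, n = 2 arrays per day) and did not pass (adjusted p = 0.56, limma). With reference gene scaling the differences of Pdgfrb and Fgfr3 were 3.07 and 3.80 and passed (adjusted p = 0.0495 and 0.028, limma). Under that scaling 68 of 96 genes passed, all higher at day 10, with a median difference of 3.97. Both genes thus lay below the median gene, from day 7 spots below background.

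**Figure D2:**
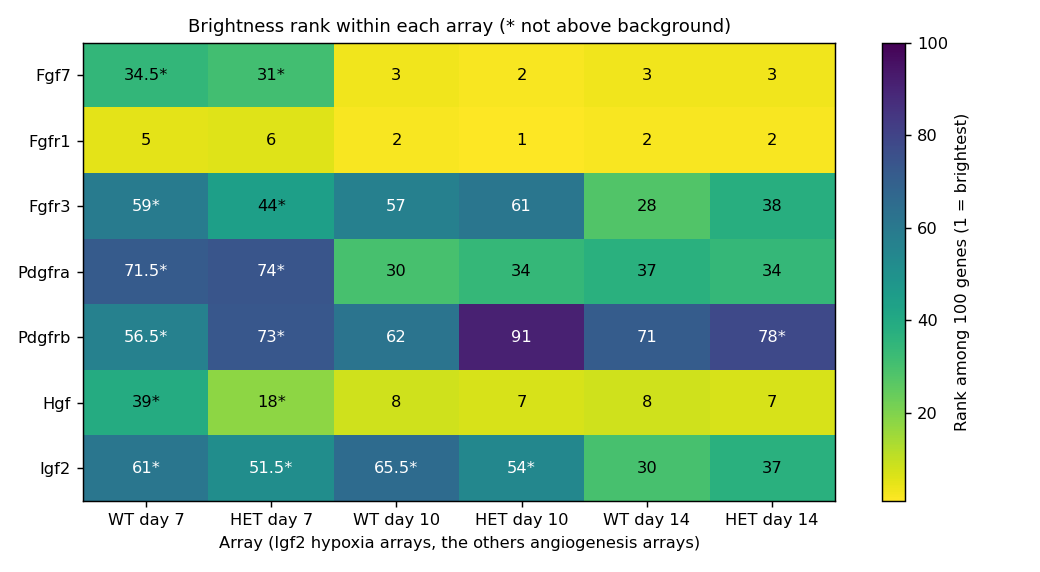
Rank of each gene among the 100 genes of its array (1 is the brightest), by genotype and day, with 1 array per column and an asterisk where the spot was not above background. Fgf7 and Hgf stand among the 8 brightest genes on all 4 arrays of days 10 and 14, while Pdgfrb falls at rank 91 on the day 10 array labelled HET against 62 in WT.

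In all, 3 of the 6 members on the angiogenesis arrays (Fgf7, Hgf and Pdgfra) passed the day 10 minus day 7 test, all in the higher direction, where 32.3% of the 96 genes tested passed and 17.7% passed in the higher direction. The 3 met the filter for the test through the arrays of days 10 and 14 alone. The median difference of the 96 genes was -0.25 log2 units after quantile normalization, 3.07 without normalization and 3.97 with reference gene scaling. Under the latter 2, Fgf7 was at 9.01 and 9.91, Hgf at 8.80 and 9.71 and Pdgfra at 5.37 and 6.28, above the median. Below it lay Fgfr1, at 1.02 and 1.93, Fgfr3, at 2.90 and 3.80, and Pdgfrb, at 2.17 and 3.07. All of these but Fgfr1 were below background at day 7, and Fgfr1 was cut off by the ceiling at day 10. Igf2 was below background at both days, and 0% of the 73 genes tested on the hypoxia arrays passed between days 7 and 10, with 14 at an unadjusted p under 0.05. Between days 10 and 14 no gene of the angiogenesis arrays passed (0%), with 7 of 96 at an unadjusted p under 0.05, and Igf2 was not among the 16.4% of 73 genes that passed on the hypoxia arrays (6.85% in the higher direction). The day 7 arrays had few genes above background as a whole, and cell type markers moved with the day too. Of the 7 endothelial markers, 0 were above background on both day 7 arrays and 3 to 7 later, with summed densities of 190 and 963 at day 7 and between 45788 and 69465 later. Most of each later sum was the single marker Flt1, at 42065 to 49686, while Eng was never above background in WT. Of the 2 macrophage markers, Msr1 and Cd36, 0 were above background at day 7 and both later, with summed densities of 32.3 and 226 against 8175 to 40820, and none was at 0. The bone matrix genes Sparc and Spp1 had summed densities of 463 in WT and 6115 on the array labelled HET at day 7, against 51204 and 40497 at day 10. Chga, a neuroendocrine marker, went from 2194 to 42232 in WT and from 590 to 28587 on the arrays labelled HET. The part of these shifts in the differences of Fgf7, Hgf and Pdgfra was not tested.

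Between the genotypes, 8 of the 21 combinations of gene and day gave a difference, and in the other 13 both spots were below background, both were near the ceiling, or the bound ran against the brighter spot. Values are HET minus WT on the log2 scale after quantile normalization, for 1 pair of arrays each, with no test. Fgfr1 at day 7 was at -0.35, and it lay below 0 under all other scalings too, from -1.51 under median scaling to -0.42 without normalization. Hif1a goes against the labels of that day, and if those labels were exchanged the sign would turn. At days 10 and 14 Fgf7 and Fgfr1 were near the ceiling in both genotypes and have no difference. Hgf at day 14 was at 0.90, but its densities ran the other way, 42467 against 45885.5, and the difference was -0.11 without normalization and 2.77 under median scaling. At day 7 Fgfr1 was not 2-fold apart, where 16.7% of the 6 genes that gave a fold were past 2-fold down and 16.7% past 2-fold up. Under median scaling Fgfr1 at day 7 passed 2-fold lower, where 33.3% did, and Hgf at day 14 passed 2-fold higher, where 56.5% did.

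Fgfr3 was at -0.17 at day 10 and at -1.004 at day 14. Both values lay below 0 under every scaling, and without normalization they were -1.70 and -3.90. Relative to its own brightest control spot, Fgfr3 stood at 2.17 in WT and 2.31 on the array labelled HET at day 10, and at 13.0 and 1.62 at day 14. Pdgfrb at day 10 was at -1.32, at -1.31 under median scaling and at -2.92 without normalization, from a HET spot at the background limit. Its day 14 spot was above background in WT alone, and on the normalized scale no bound can be given.

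Pdgfra was at -0.48 at day 10, where it lay below 0 under every scaling, and at 0.32 at day 14, where it turned to -2.36 without normalization and -2.44 with reference gene scaling. Its rank was 30 in WT and 34 on the array labelled HET at day 10, and 37 and 34 at day 14. Igf2 at day 14 was at -0.67 and stayed below 0 under every scaling, from -1.60 without normalization to -0.52 under median scaling. After quantile normalization it was not 2-fold apart, where 15.6% of 45 genes were past 2-fold up and 17.8% past 2-fold down, and without normalization it was at least 2-fold lower, as were 45% of 40 genes. Of the 8 differences, 6 (Fgfr1 at day 7 by its labels included) kept their direction under the 5 alternative scalings and background settings, and those of Hgf and Pdgfra at day 14 did not. The 6 were all below 0. Without normalization, 64 of 71 angiogenesis genes with a fold at day 10 and 67 of 73 at day 14 were below 0. On the hypoxia arrays of day 14, 29 of 40 were. At day 7 it was 2 of 8 angiogenesis genes. A kept sign at days 10 and 14 therefore says little of a single gene.

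**Figure D3:**
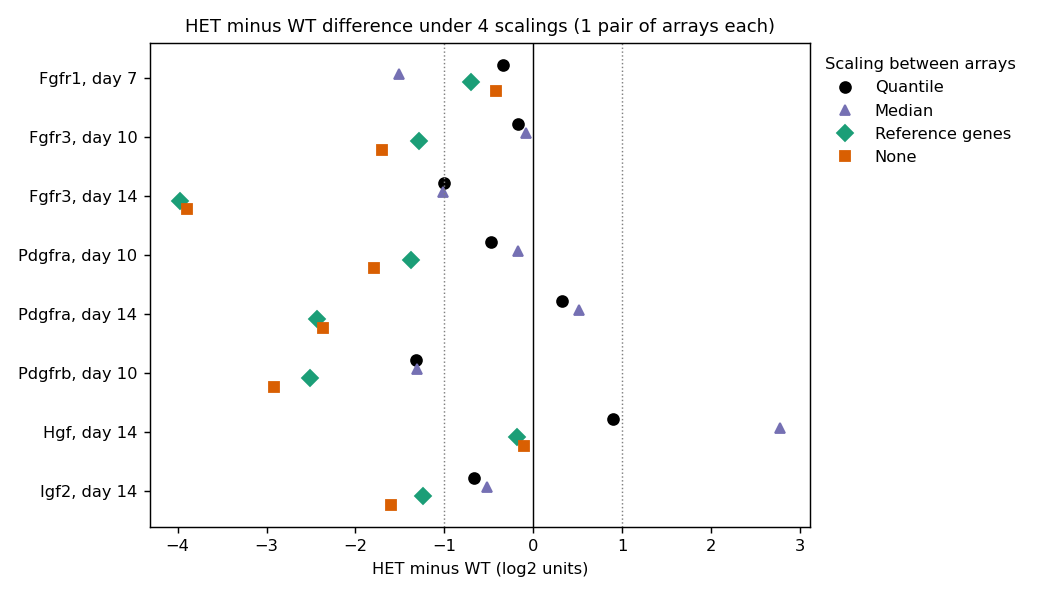
HET minus WT difference (log2 units, 1 pair of arrays each) for the 8 combinations of gene and day that give a value, under 4 scalings between arrays; dotted lines mark a 2-fold difference. Fgfr3 at day 14 and Pdgfrb at day 10 lie at -1 or lower under all 4 scalings, and Hgf and Pdgfra at day 14 have points on both sides of 0.

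At day 10, 1 of the 3 members with a difference was at least 2-fold lower on the array labelled HET (Pdgfrb) and 0 were at least 2-fold higher, where 13.2% of the 76 genes with a fold were lower and 7.89% higher. At day 14 the counts were 1 of 3 lower (Fgfr3, at the threshold) and 0 higher, where 13% of 46 genes were lower and 8.7% higher. The median of the members was -0.48 at day 10 and 0.32 at day 14, against -0.09 and 0.14 over all genes with a fold. Without normalization 3 of 3 members at day 10 and 2 of 4 at day 14 were at least 2-fold lower, where 63.4% and 64.4% of all genes with a fold were. With reference gene scaling the counts were the same, against 50.7% and 67.1%. The medians without normalization were -1.79 for the members and -1.45 for all genes at day 10, and -1.61 and -1.50 at day 14. Most genes of these pairs were thus dimmer on the array labelled HET before normalization, and the members' medians lay near those of all genes.

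**Figure D4:**
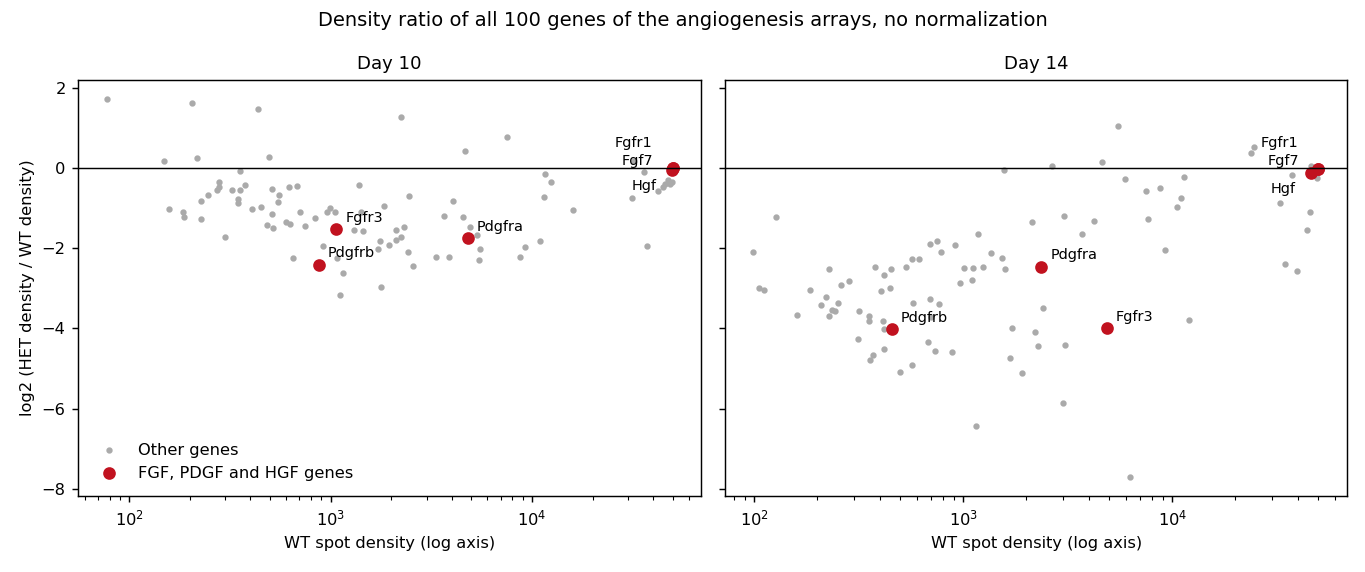
Log2 ratio of HET to WT density without normalization (y axis) against WT density (log axis) for the 100 genes of the angiogenesis arrays at days 10 and 14, with Fgf7, Fgfr1, Fgfr3, Pdgfra, Pdgfrb and Hgf in red. Fgf7, Fgfr1 and Hgf sit near 0 at the ceiling on the right, and Fgfr3, Pdgfra and Pdgfrb lie below 0 within the spread of the other genes.

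Over the 3 days, 0 of the 7 genes passed the limma test of genotype with day in the model, and 0% of the 96 genes of the angiogenesis arrays and 0% of the 73 genes of the hypoxia arrays did (2 and 3 genes at an unadjusted p under 0.05). Without the day 7 arrays 0 genes passed on either type by the same test, with 3 genes on each at an unadjusted p under 0.05. The fit takes spots below background and near the ceiling at their measured values, so for Fgf7, which had no usable spot pair on any day, for Fgfr1, near the ceiling on 4 of 6 arrays, and for Igf2, below background on 4 of 6, its values say nothing of a genotype difference and are not given. Hgf was at 1.38 log2 units (95% confidence interval 0.01 to 2.75, adjusted p = 0.87, limma) after quantile normalization. It was at 0.53 (-1.58 to 2.64) without normalization, 0.55 (-1.52 to 2.62) with reference gene scaling and 0.90 (-0.10 to 1.89) without the day 7 arrays. Both day 7 spots of Hgf were below background, both day 10 spots were near the ceiling, and its densities at days 10 and 14 were lower on the arrays labelled HET. Fgfr3, Pdgfra and Pdgfrb, each below background at day 7, were at -0.13 (-1.53 to 1.27), -0.08 (-1.28 to 1.11) and -0.79 (-2.03 to 0.45) after quantile normalization. Without normalization these genes were at -1.41 (-4.56 to 1.73), -0.99 (-3.59 to 1.61) and -1.73 (-4.62 to 1.15). Pdgfrb was above background on only 3 of 6 arrays.

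The wider growth factor list held 18 genes of the FGF, PDGF, HGF, IGF and EGF families on the angiogenesis arrays, the 6 members included. Between days 7 and 10, 4 of the 18 passed and all 4 were higher, against the shares of 32.3% and 17.7% given above. The count was 14 of 18 with reference gene scaling, 3 of 18 with median scaling and 5 of 14 with genes above background on at least 3 arrays. Over all genes it was 68 of 96, 34 of 96 and 33 of 71. The 4 after quantile normalization were Fgf7, Hgf, Pdgfra and Fgf4, an FGF ligand gene, at 2.27 log2 units (SE 0.55, n = 2 arrays per day, adjusted p = 0.029, limma), named after its values were seen. Fgf4 was below background on both day 7 arrays (12.3 and 109), met the filter through later arrays alone, and has no bound on the normalized scale. Its SE and p thus do not measure a rise, and it did not pass with median scaling, at 1.48 log2 units (adjusted p = 0.102, limma). Between the genotypes, Pdgfrb at day 10 and Fgfr3 at day 14 were the only listed genes at least 2-fold apart after quantile normalization, of 14 and 6 with a fold. For the day comparison the list's median was 0.12 log2 units against -0.25 over all 96 genes. Neither the genotype effect nor the day 14 minus day 10 difference passed for any of the 18, with 1 gene at an unadjusted p under 0.05 in each.

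The 12 listed genes that are not members had densities between 9.65 and 174 at day 7. Of these, 0 were above background in both genotypes, where 9% of all genes were in WT and 12% on the array labelled HET. At day 10 the number above background was 9 in WT and 11 on the array labelled HET, where 76% and 91% of all genes were. At day 14 it was 9 and 1, where 79% and 44% were, with median densities of 626 and 35.3. That 1 gene was Tgfa, a ligand of the EGF receptor also named after its values were seen, at a density of 223 against 1239 in WT. The direction for Tgfa depended on the scaling, with HET minus WT at 0.36 log2 units after quantile normalization, 0.58 under median scaling and -2.30 without normalization. Of the 6 members, 6 were above background in WT at day 14, where 79% of all genes were, and 5 on the array labelled HET, where 44% were. The members were chosen with earlier results of these data known, so these counts are no test of them.

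The pattern most like that of Pdgfra over the 6 angiogenesis arrays, among 32 genes above background on at least 4 arrays and near the ceiling on at most 2, was that of Tgfb3 (Pearson r = 0.99), followed by Msr1 (r = 0.97), against a median r of 0.45. For Fgfr3 the closest were Spp1 (r = 0.53) and Rsn (r = 0.49), against a median of 0.06. These values describe 6 arrays after quantile normalization. All of these genes were below background on both day 7 arrays, so the day 7 points hold no readable level. Without normalization, the genes share the brightness of each array, and r was 0.94 for Tgfb3 and 0.91 for Msr1 against a median of 0.92 for Pdgfra. Tgfb3 was thus hardly closer than the typical gene, and Msr1 no closer. For Fgfr3 it was 0.85 for Spp1 and 0.96 for Rsn against a median of 0.83, in the reverse order.

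The authors' deposited table of ratios to Actb holds values for 20 of the 42 member spots. It is empty for Pdgfrb on all 6 arrays, and for Fgf7 and Fgfr1 on the WT arrays of days 10 and 14, where these spots were near the ceiling. In the authors' deposited table the same genes on the arrays labelled HET are filled, with Fgf7 at 1.03 and 0.98 and Fgfr1 at 1.03 and 0.99 of Actb at days 10 and 14. Actb was itself near the ceiling on these arrays, at 48666 and 50442, so these ratios do not compare levels. Of the member spots above background, 8 are empty there, and 1 spot below background, Hgf on the day 7 array labelled HET, is filled at 0.0034 in the authors' deposited table. For Fgfr3 at day 14 the authors' deposited table gives 0.095 in WT and 0.0059 on the array labelled HET, and for Pdgfra 0.045 and 0.0083.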

How the data were processed

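RNA of fracture callus was measured on GEArray Q Series membranes, 1 array per genotype, day and array type, 12 arrays in all. The values are average spot intensities (densities) of the scanned membranes, per the file headers, and no local background is given. RNA of 3 animals was pooled, amplified with the AmpoLabeling-LPR kit and labelled with biotin, per the labels' protocols. The sources used here do not name the image software. The deposited ratio equals a spot's density minus the array's lowest, divided by the same for Actb, in every filled value of all 12 arrays. The sample labelled HET at day 7 has a second angiogenesis file, which is headed WT and equals the WT day 7 file in 112 of 112 spots, and it was not used.

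Intensities were corrected with normexp on all spots (limma 3.58.1, R 4.3.3; offset 25.9, set at 10% of the median over gene spots), taken to log2, averaged per gene and quantile normalized within an array type, with control spots left out. Where 1 of 2 spots was below background, its level was replaced by that of the dimmest gene above background on its array, which gives a bound. Genotype and day were fitted with lmFit and eBayes on the 6 arrays of a type (2 residual degrees of freedom, two-sided, Benjamini-Hochberg over genes above background on at least 1 array, threshold 0.05). The residual thus holds changes of the genotype difference from day to day together with array error. Precision is limited by the number of arrays, the ceiling and the control spots. The only repeats within an array are the spots of the 4 reference genes, with a pooled SD of 0.33 log2 units. All 7 members are named, with listed genes named where at least 2-fold apart and the 2 genes of most similar pattern. The members and lists were chosen with earlier results of these data known.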

Additional observations from a re-analysis of the deposited data

Results flagged for a closer look

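Pdgfra differed in opposite directions between the genotypes at 2 days. HET minus WT was -0.48 log2 units at day 10 and 0.32 at day 14 after quantile normalization, for 1 pair of arrays each. The difference between the days was not tested, and at day 14 the direction turned to -2.36 without normalization.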

How the results depend on the processing

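No paired analysis was possible because each group has 1 array, beyond the genotype fit itself, which compares the genotypes within days. Fgf7, Hgf and Pdgfra passed the day 10 minus day 7 test under all 8 settings run (other scalings, offset 50, no background correction, 2 other filters), with adjusted p from 5.1e-05 to 0.0056, 5.1e-05 to 0.012 and 0.0014 to 0.043. The day 7 spots of these genes were below background throughout, and the genes met the filter through the later arrays alone. Fgf7 and Hgf were also near the ceiling on both day 10 arrays. The p values of these fits therefore do not measure the rises, and passing under every setting is no added support. Fgfr3 and Pdgfrb turned to 3.80 and 3.07 log2 units with reference gene scaling and passed there (adjusted p 0.028 and 0.0495, limma), below the median of 3.97 over all genes tested. No gene passed the genotype test on either array type under any setting, leaving out each day in turn included. On the angiogenesis arrays 68 genes passed day 10 minus day 7 with reference gene scaling, against 31. On the hypoxia arrays day 10 minus day 7 gave 18 genes with median scaling, 26 with reference genes, 38 without normalization and 2 with genes above background on at least 3 arrays, against 0, and day 14 minus day 10 gave 20, 39, 33 and 4, against 12. Members at least 2-fold lower in HET were 3 at day 10 and 2 at day 14 with reference genes or no normalization, 0 at day 14 with offset 50 or no background correction, and 1 at day 7 with median scaling. Median scaling also gave 1 member at least 2-fold higher at day 14. For the growth factor list, lower genes were 7 with reference genes and 9 without normalization at day 10, 10 and 10 at day 14, 0 with offset 50 or no background correction at day 14, and 1 with median scaling at day 7. Higher ones were 2 at day 10 and 1 at day 14 with median scaling. The causes were not tested. With the brightest control of any array of a type as the limit, 20 of 42 member values were above background, and at 95% of the highest density 9 were near the ceiling. No depth can be given for arrays.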
